A study of Mus musculus with 7 samples.

Results

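The genes described here are 38 complement and coagulation genes whose products circulate in blood plasma. They were taken by name, with no peak value in the rule, and each was given a window of its span in the mouse genome (build mm9, gene models of GENCODE vM1) extended by 20 kb on each side. The 38 windows merged to 31 loci that cover 2.40 Mb. A peak was counted at a locus when its summit, the position of highest signal, fell inside it. The loci held 445 of the 144052 peaks in both deposited lists, namely 228 of 76683 CTCF peaks and 217 of 67369 Rad21 peaks.

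Livers were taken from 8-week-old males of the CD-1 stock, Crl:CD1(ICR), in which binding of CTCF (4 libraries) and of Rad21 (3 libraries) was mapped by chromatin immunoprecipitation and sequencing (ChIP-seq). All animals belonged to 1 group with no treatment or altered allele given in the labels. The reads of each factor were merged before peaks were called, so each value below is a single value for the pooled libraries, without a spread between replicates. Whole liver was used, and expression was not among the data analysed here, so a peak cannot be assigned to hepatocytes or to another liver cell type, and the labelled tissue could not be checked against markers.

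Complement is a cascade of plasma proteases that tags and lyses microbes, and coagulation is a related cascade that ends in a fibrin clot. Hepatocytes make most of the proteins of both, whereas macrophages are the main source of the recognition protein C1q. CTCF is a DNA-binding protein that halts the ring-shaped cohesin complex, of which Rad21 is a subunit, and a pair of CTCF motifs that point toward each other (convergent order) is the usual base of a chromatin loop. Cohesin is also found without CTCF, often at enhancers and promoters of genes that are active in the tissue. In the following, Rad21 peaks that share at least 1 bp with a CTCF peak are termed co-bound, and those that do not are termed CNC (cohesin-non-CTCF) peaks.

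Before the counts, the sequence under some of these peaks is shown, since CTCF motifs give anchors their strand and were found at many co-bound and few CNC peaks. The first set holds the nearest CTCF anchors on either side of member genes, where these stood in convergent order less than 100 kb apart. The left anchor of Mbl1 and the right anchors of F12 and of F7 and F10 lie outside the loci. They are not among the CTCF peaks counted there. An anchor is a CTCF site that the authors assigned to the boundary of a topologically associating domain (TAD), or to a loop predicted within a TAD (intra-TAD anchor). Each line is written along the strand of the motif, where left is the side of lower coordinates. A + site reads toward higher coordinates and a − site toward lower ones, and capitals mark the 19 bases aligned to the CTCF motif learnt from the strongest TAD anchors, with the consensus NCCANNAGNNGGCNNNNNN.
Mbl2 left, TAD anchor, + strand, chr19:30291988-30292008: gGCCAGAAGATGGCAGGGTTg
Mbl2 right, intra-TAD anchor, − strand, chr19:30322004-30322024: gGCCAGAAGGAGGCAGCACTg
Mbl1 left, intra-TAD anchor, + strand, chr14:41941467-41941487: aGCCAGCAGAGGGCAGAGCTg
Mbl1 right, intra-TAD anchor, − strand, chr14:41976159-41976179: aACCAGCAGAGGGCAGCATGa
Cfb and C2 left, TAD anchor, + strand, chr17:34992926-34992946: gGCCACCAGAGGGCAGAGTAa
Cfb and C2 right, intra-TAD anchor, − strand, chr17:35049208-35049228: aGCCACTAGGGGTCGCTGTGc
F12 left, intra-TAD anchor, + strand, chr13:55506945-55506965: aGCCACCAGATGGCGCTATTg
F12 right, intra-TAD anchor, − strand, chr13:55572902-55572922: gGCCAGTAGGGGGCGCGCGGa
F7 and F10 left, intra-TAD anchor, + strand, chr8:13010455-13010475: gACCTGCAGGAGGCGCTGAGc
F7 and F10 right, intra-TAD anchor, − strand, chr8:13105473-13105493: gCTCGCGAGAGGGCGCCGTGa
The strand found here was the deposited one at each of these sites. The match at the right anchor of F7 and F10 reached 10.1 bits, under the limit of 10.8 bits that 5% of flanking positions pass, and is shown as the best alignment only.

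The second set holds 5 CNC peaks whose central 120 bases contain a word searched for liver transcription factors, on either strand. A further such peak, at a start of Proc, is not printed. Capitals mark the word, which was AAAGTCCA for HNF4 (in its reverse complement TGGACTTT at F10 and Plg) and TTNNGCAA for C/EBP, which at C1ra stands in its reverse complement as TTGCTGAA. The lines are written along the + strand of mm9, each holds 1 word, and none of these 5 peaks had a match of the CTCF motif within 150 bp of its summit, so no word overlapped a match of that motif.
Between F10 and Proz, 19707 bp downstream of a start of F10, chr8:13057485-13057604: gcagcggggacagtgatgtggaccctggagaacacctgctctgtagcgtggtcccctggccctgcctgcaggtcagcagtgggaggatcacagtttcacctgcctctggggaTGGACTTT
Plg, within the gene, chr17:12581310-12581429: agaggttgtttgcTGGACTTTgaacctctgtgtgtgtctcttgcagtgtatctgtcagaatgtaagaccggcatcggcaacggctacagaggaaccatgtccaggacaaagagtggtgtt
C8b, intron, chr4:104452182-104452301: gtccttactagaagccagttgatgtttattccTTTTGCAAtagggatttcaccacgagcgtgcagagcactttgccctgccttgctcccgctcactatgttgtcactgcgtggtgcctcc
Mbl2, intron, chr19:30309136-30309255: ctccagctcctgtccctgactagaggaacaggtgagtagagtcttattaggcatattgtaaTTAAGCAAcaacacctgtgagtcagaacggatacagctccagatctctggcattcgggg
C1ra, intron, chr6:124463230-124463349: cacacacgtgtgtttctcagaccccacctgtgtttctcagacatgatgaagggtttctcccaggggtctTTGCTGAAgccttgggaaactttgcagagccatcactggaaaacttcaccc

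At the complement and coagulation loci a larger share of Rad21 peaks lacked CTCF than in the whole list. CNC peaks numbered 76 of the 217 Rad21 peaks at the loci, a share of 35.0% (95% Wilson interval 29.0 to 41.6%), against 22.7% (22.4 to 23.1%) of all Rad21 peaks and 21.7% of those in the merged windows of all 22380 protein-coding genes. The share fell to 13.01% (8.14% of all Rad21 peaks) when peaks scoring under 100 were left out, and to 23.0% (17.6%) when, with all scores kept, a CNC peak was also required to have no CTCF summit within 1 kb. A CNC peak lay in the window of 31 of the 38 genes, compared with 36.3% of all protein-coding genes. In 16 of the 38 windows there were 3 or more CNC peaks, compared with 9.87% of the windows of all genes. Windows of neighbouring genes overlap, so a peak can count for more than 1 gene. The CNC peaks in the window of F7 were those at the starts of F10, and Cfb and C2 shared all of theirs. The intervals cover counting error only, and no test was made over the members.

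All kinds of peak were denser at these loci, CNC peaks by the largest ratio. Per Mb the loci held 31.7 CNC peaks, against 8.47 in the merged windows of all protein-coding genes and 5.99 in the genome. Co-bound peaks had 58.8 per Mb, against 30.5 and 20.3, and CTCF peaks 95.05 per Mb, against 44.7 and 30.0. Each of the 38 genes had at least 1 CTCF peak in its window (83% of all genes) and at least 1 Rad21 peak (80.1% of all genes). The median gene had 6 CTCF, 4 co-bound and 2 CNC peaks, and the corresponding medians over all genes were 4, 3 and 0.

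**Figure D1:**
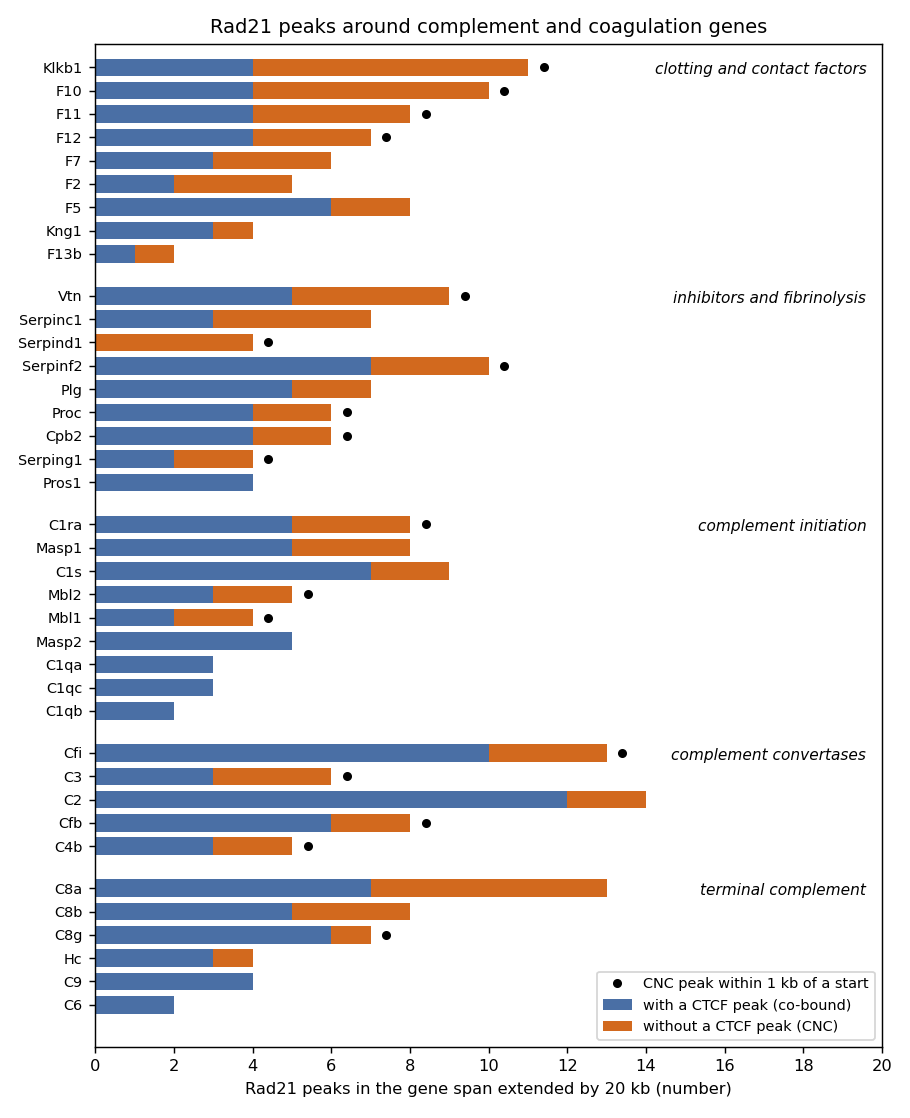
Number of Rad21 peaks in the window of each member (gene span extended by 20 kb on each side), grouped by role, with co-bound peaks in blue, CNC peaks in orange, and a black dot where a CNC peak lay within 1 kb of one of the gene's starts. Klkb1 had the most CNC peaks (7), C2 the most co-bound peaks (12), Serpind1 had CNC peaks alone, and 7 genes had no CNC peak. Windows of neighbouring genes overlap, and 4 of the 7 CNC peaks of Klkb1 also lay in the window of F11.

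CNC peaks were also more common at the starts of the members than at those of genes in general. A CNC peak had its summit within 1 kb of an annotated transcription start of 18 of the 38 genes, or 47.4% (32.5 to 62.7%), whereas 9.33% of all protein-coding genes had one. With a CTCF peak counted as shared only where the summits lay within 100 bp, it was 22 genes against 27.4% of all genes, and with a reciprocal overlap of 50% it was 20 against 20.8%. Without peaks scoring under 100 it was 3 genes, against 2.92% of all genes. By contrast, a co-bound Rad21 peak lay at a start of 21 of the 38 genes (55.3%), near the 49.6% of all genes. A CTCF peak lay at a start of 27 (71.1%, against 55.1%). Of the 18 genes with a CNC peak at a start 8 also had a co-bound one and 10 did not, 13 genes had a co-bound peak only, and 7 had no Rad21 peak at any start.

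CNC peaks at starts are free of CTCF only in the sense of not overlapping a listed CTCF peak. At 11 of the 18 genes a CTCF peak also had its summit within 1 kb of a start. If CNC peaks with a CTCF summit less than 1 kb away were left out, 9 genes had a CNC peak at a start, against 4.34% of all genes. The CTCF summits closest to CNC peaks at starts were those at Vtn (190 bp), Mbl2 (329 bp), Cfb (370 bp), Serpinf2 (391 bp) and Serping1 (399 bp). At Serpind1 the nearest one was 6793 bp away.

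Position along the gene was then described for each kind of peak. Of the 76 CNC peaks at the loci 23 lay at a start of a member (30.3%), 10 at the start of another gene in the window (13.2%), 22 elsewhere in a member, 6 elsewhere in another gene and 15 between genes. Of the 141 co-bound peaks 24 lay at a start of a member (17.0%) and 22 at that of another gene (15.6%). In the whole lists 14.3% of CNC and 26.5% of co-bound peaks lay within 1 kb of the start of a protein-coding gene. Windows drawn around genes hold more starts than the genome does, and this applies to both kinds of peak. Among the 23 CNC peaks at starts 16 lay at or downstream of the start and 7 upstream, at a median distance of 134 bp.

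**Figure D2:**
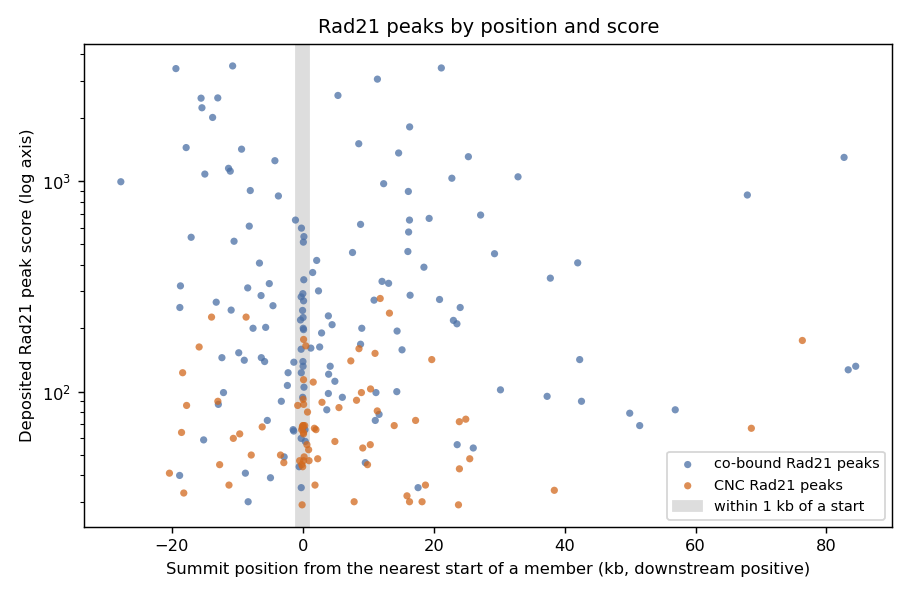
Deposited score of each of the 217 Rad21 peaks at the loci (log axis) against the distance of its summit from the nearest start of a member (kb, downstream positive), with co-bound peaks in blue, CNC peaks in orange and the zone within 1 kb of a start in grey. CNC peaks crowd at the start with scores of 29 to 177, and no CNC peak of the loci exceeded 277, whereas co-bound peaks reached 3524.

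CNC peaks at starts were weak by the deposited measures. Their score, the −log10 of the q-value multiplied by 10, had a median of 66, close to the median of 65 over all CNC peaks. The strongest such peak, at Cpb2, scored 177, and 11 of the 23 fell below the median of all CNC peaks. The number of fragments at the summit ranged from 20 to 68. Only 3 of the 38 genes kept a CNC peak at a start when peaks scoring under 100 were left out, against 2.92% of all genes. Apart from the peak at Cpb2 and the strongest one at F10, each scored under 164, the median of all Rad21 peaks.

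Among the 9 clotting and contact factors, 4 had a CNC peak at a start, and all 9 had one in the window. Those in the window of F7 were the CNC peaks at the starts of F10. F10, the protease that turns prothrombin into thrombin, had 3 of them within 1 kb of its starts, with scores of 165, 86 and 44. The strongest lay at chr8:13038185-13038730 in an intron, 467 bp downstream of the nearest start, with 68 fragments over a local background of 18.3. The neighbouring gene F7, whose product is engaged by tissue factor to begin clotting, had a co-bound peak at its start instead, with a score of 282.

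F11 and Klkb1, neighbours on chromosome 8 that encode the contact protease factor XI and plasma prekallikrein, shared a locus with 7 CNC and 6 co-bound Rad21 peaks. At F11 the CNC peaks within 1 kb of a start lay 730 bp downstream and 97 bp upstream of it, with scores of 80 and 29. Others lay 2890 and 6193 bp upstream, with scores of 46 and 68. Klkb1 carried 3 CNC peaks with scores of 64, 53 and 47 at an internal start, between 13133 and 14506 bp into the gene, and none at its 5′ end. Its window held all 7 CNC peaks of the locus, the most of any member, at the 98.9th percentile of all genes. Of these, 4 also lay in the overlapping window of F11, including those at its starts. F12, which starts the contact pathway, had a CNC peak of score 69 placed 87 bp downstream of a start, and a CTCF summit 904 bp from it.

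The remaining clotting factors had CNC peaks away from their starts. Next to F2, the gene of prothrombin, the strongest CNC peak of the role group (score 226, 76 fragments, chr2:91490348-91490724) sat 121 bp downstream of the start of Arhgap1, 13929 bp upstream of F2. In an intron of F5, the cofactor of factor X, a CNC peak of score 152 lay 11044 bp downstream of the start. Kng1, the kininogen, and F13b, the carrier subunit of the fibrin-crosslinking factor, each had 1 CNC peak in the window. F13b had only 2 Rad21 peaks in all, together with C6 and C1qb the fewest of the members.

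CNC peaks at a start were found at 6 of the 9 inhibitors and fibrinolysis genes. The strongest of all members lay at Cpb2 (chr14:75641977-75642402), whose product protects clots from plasmin, 131 bp downstream of the start in a coding exon, with 41 fragments over a background of 6.28. Its deposited fold, the ratio of fragments to local background after 1 is added to each, was 5.77, also the highest of any CNC peak at a member's start. Proc, the gene of the anticoagulant protein C, had a CNC peak of score 114 at an internal start, 1486 bp into the gene. A second one of score 226 lay 8653 bp upstream, where a CTCF summit was 606 bp away.

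The other starts of this group had scores under 100. At Vtn, the gene of vitronectin, and at Serping1, that of the C1 inhibitor, the score was 69, and the peaks lay 300 and 14 bp downstream of a start. The peak at Serpinf2, the gene of the main plasmin inhibitor, scored 66, with 60 fragments over a local background of 25.3, the highest background of any CNC peak at a member's start. Serpind1, the gene of a thrombin inhibitor that heparin activates, had 4 CNC peaks and no co-bound one. Its window held 1 CTCF peak, the fewest of the members, and the CNC peak at its start scored 45.

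Members of the same group without a CNC peak at a start differed among themselves. Serpinc1, the gene of antithrombin, had no Rad21 peak at a start, but a CNC peak of score 48 at 2284 bp downstream and 3 more, with scores of 160, 99 and 103, between 8591 and 10358 bp downstream. At Plg, the plasminogen gene, a co-bound peak of score 35 lay at the start and a CNC peak of score 111 lay 1600 bp downstream. Pros1, the cofactor of protein C, had 4 Rad21 peaks, all co-bound. The strongest CNC peak of all loci (score 277, fold 5.05, 76 fragments, chr11:78325774-78326368) was in the window of Vtn but at another gene, 22 bp downstream of the start of Poldip2.

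Among the 9 genes that initiate complement, 3 had a CNC peak at a start. They were the mannose-binding lectins Mbl1 (score 92, 59 bp downstream) and Mbl2 (score 87, 134 bp downstream), which recognise sugars on microbes, and C1ra, a protease of the C1 complex (score 56, 640 bp downstream). Mbl1 and Mbl2 lie on different chromosomes, and each had 2 CNC peaks in its window and no co-bound peak at its start. The C1ra peak also lies within the neighbouring copy C1rb, and reads that match both copies equally are lost when unique positions are required. C1s, the partner protease, had a co-bound peak of score 598 at its start.

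The 3 genes of C1q, which recognises antibody-coated targets, had no CNC peak, but they are neighbours and amount to a single observation. C1qa, C1qb and C1qc share a 58.7-kb locus with 6 CTCF peaks and 3 Rad21 peaks, all of them co-bound. No CNC peak lay anywhere in it, and none of the 3 genes had a Rad21 peak at a start. Masp2, a protease that travels with the lectins, also lacked CNC peaks and had 5 co-bound ones. Its relative Masp1 had an intra-TAD anchor with a co-bound peak of score 545 at a start, and 3 CNC peaks elsewhere, of which the strongest (score 175) was the strongest of the role group and lay 76313 bp from the nearest start of Masp1, beyond the gene.

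At 4 of the 5 convertase genes, whose products build or break the enzymes that cleave C3, a CNC peak lay at a start. C3, the central component, had one of score 49 in an intron 211 bp downstream of its start, with 41 fragments over a background of 16.4. The peak at Cfb, the protease of the alternative pathway, scored 63 and lay 120 bp downstream, between co-bound peaks of scores 105 and 159. At Cfi, which inactivates C3b and C4b, the score was 47, and 10 of the 13 Rad21 peaks in the window were co-bound.

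The peak assigned to C4b (score 47) lay 964 bp downstream of an internal annotated start. Its summit was 15581 bp from the 5′ end of the gene, beyond the 3′ end. C4b, too, has a near-identical copy in the mouse genome. Without C1ra, C1s and C4b, 16 of 35 genes had a CNC peak at a start. C2, the protease of the classical pathway, had none at a start but co-bound peaks of scores 225 and 243. With 12 co-bound Rad21 and 13 CTCF peaks it had the most of both among the members, and it shared a locus of 15 CTCF and 15 Rad21 peaks with Cfb.

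The terminal complement genes, which encode the pore that lyses membranes, had the fewest CNC peaks at starts, at 1 of 6. It lay at C8g, scored 68 and was 60 bp upstream of an internal start, 1545 bp into the gene. C8a and C8b, which encode other C8 subunits, shared a 150-kb locus with 9 co-bound and 7 CNC Rad21 peaks, of which none of the CNC peaks was at a start. The strongest of them (score 236, fold 5.75, 56 fragments, chr4:104451919-104452423) lay in an intron of C8b, 13242 bp downstream of the start, and is the C8b sequence printed above.

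Co-bound peaks lay at the starts of 5 of the 6 terminal genes (C6, C8a, C8b, C8g and C9), compared with 4 of the 5 convertase genes, 5 of 9 inhibitors and fibrinolysis genes, 4 of 9 initiation genes, 3 of 9 clotting and contact factors and 49.6% of all protein-coding genes. They had scores such as 292 at C8b, 219 at C8g, 94 at C6 and, for the stronger of a pair, 67 at C8a. Hc, which encodes C5, had no Rad21 peak at a start and a CNC peak of score 163 at 15826 bp upstream. C6 and C9 had no CNC peak in their windows. With 5 to 9 genes in each role group, the intervals of the shares with a CNC peak at a start overlapped widely, from 3.01 to 56.4% for the terminal genes and from 37.6 to 96.4% for the convertases.

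**Figure D3:**
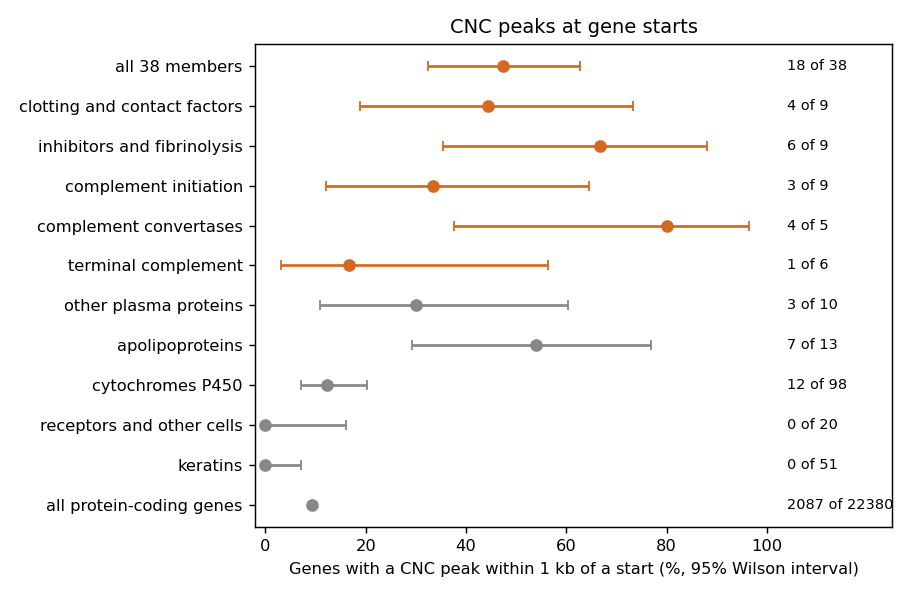
Share of genes with a CNC peak within 1 kb of a start (percent, with 95% Wilson intervals that cover counting error only) for all members, for each role group (orange) and for other gene lists and all protein-coding genes (grey), with counts at the right. Members reached 47.4%, apolipoproteins 53.8% and all protein-coding genes 9.33%, while receptors and keratins were at 0.

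Other genes of the same pathways were counted in the same way. Among 10 further plasma proteins of the pathways, 3 had a CNC peak at a start, which were Hrg (score 193), Serpina10 (score 175) and Proz (score 72), and 18 of their 43 Rad21 peaks were CNC peaks. None of the 3 fibrinogen genes Fga, Fgb and Fgg was among them, although each had 3 to 6 CNC peaks in its window. Proz neighbours F10 and Kng2 neighbours Kng1, so this list shares peaks with the members. The peak at Proz matched in score a CNC peak already counted at the locus of F7 and F10 (chr8:13061609-13062002). The only CNC peak of the Kng1 locus (score 123) had a start of Kng2 as its nearest start. The 18 CNC peaks are thus not wholly separate from those of the members. Of 20 receptors, surface regulators and genes known from other cell types, 0 had a CNC peak at a start, which allows a share of up to 15% by the limit of 3 counts and of up to 16.1% by the Wilson interval, and 9 of their 64 Rad21 peaks were CNC peaks (14.1%). These lists were small, and their difference was not tested.

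Genes of other liver functions, and keratin genes as a contrast, served as further comparisons. Apolipoprotein genes, which encode lipid carriers of the plasma, had a CNC peak at a start in 7 of 13 cases, and 34.3% of their Rad21 peaks were CNC peaks, close to the members' share. Some of these genes are neighbours, and the strongest such peak was the same for Apoc2 and Apoc4. Cytochrome P450 genes, which encode enzymes of drug and steroid metabolism, had one in 12 of 98 cases (12.2%), and 33.8% of their Rad21 peaks were CNC peaks. Keratin genes, which epithelia express, had one in 0 of 51 cases, which allows a share of up to 5.88% by the limit of 3 counts and of up to 7.00% by the Wilson interval. A CNC peak at the start was therefore not particular to complement and coagulation genes.

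Peak strength was next compared with the whole lists, and the local background differed. CNC peaks at the loci held a median of 36 fragments, compared with 29 over all CNC peaks, and the local background had medians of 11.4 and 7.42 fragments. The median fold was lower, at 2.93 against 3.35, and the median score was about equal, at 66.5 against 65. Co-bound peaks at the loci followed the same course, with 67 fragments against 58, a background of 11.8 against 8.32 and a fold of 4.99 against 5.97. The local background is an estimate from the ChIP reads around the peak. No input library was used here, and whether the raised background has a part in the number of CNC peaks was not tested.

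**Figure D4:**
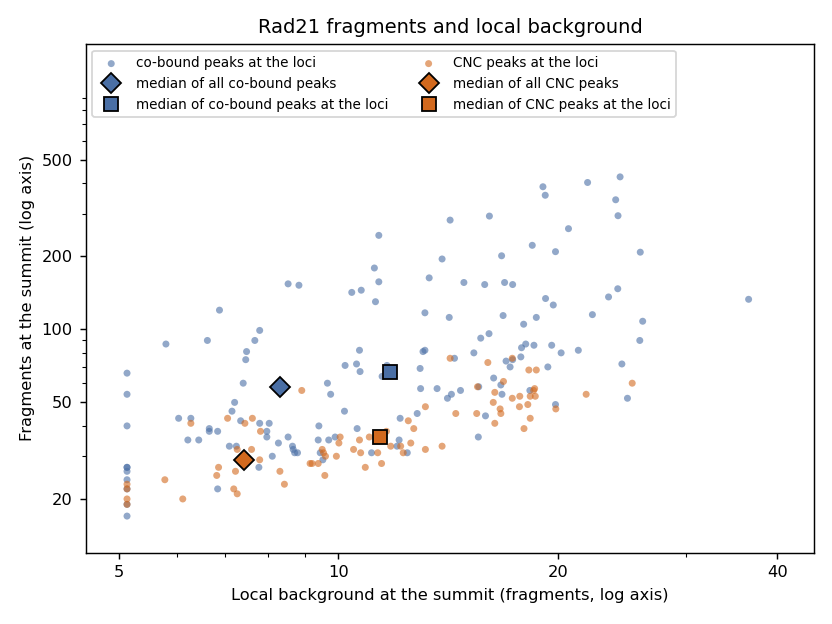
Fragments at the summit against local background for the Rad21 peaks at the loci (both axes log), with co-bound peaks in blue and CNC peaks in orange. Squares give the medians at the loci and diamonds those of all peaks of the kind, and both squares lie to the right of their diamonds (CNC 11.4 against 7.42, co-bound 11.8 against 8.32 fragments of background).

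CTCF peaks were numerous but weaker than usual at these loci. Their median score was 169.5 against 321 in the whole list, with 55.5 fragments against 69 at the summit. The strongest lay in the window of F5 (score 10010, 965 fragments, chr1:166068756-166069361), an intra-TAD anchor in an intron of Selp with its motif on the − strand. The strongest CTCF peaks of the other role groups were an intra-TAD anchor 99 bp upstream of C1rl in the C1ra locus (score 6642), an intra-TAD anchor in Ehmt2 beside C2 (score 4237), an intra-TAD anchor between genes near Hc (score 3922) and a site in Wdr81 near Serpinf2 (score 3680).

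The strongest co-bound Rad21 peak of each role group marked some of the same sites. These peaks scored 3524 in Sarm1 near Vtn, 3447 in Slc34a1 beside F12, 3423 at the C1rl anchor, 2006 at the Ehmt2 anchor and 1809 near C8g. Of these 5, those at F12, C1ra and C2 lay on intra-TAD anchors, and those at Vtn and C8g on sites that the authors listed with cohesin and CTCF but did not make anchors (other CAC sites).

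CTCF sites at the loci were more often absent from the authors' class list than CTCF sites in general. Of the 228 CTCF peaks 13 were TAD anchors (5.70%, against 7.64% of all CTCF peaks), 24 intra-TAD anchors (10.5%, against 11.8%), 68 other CAC sites (29.8%, against 35.2%) and 31 sites that the authors termed lone CTCF (13.6%, against 13.8%). Among these 31 lone sites 4 shared bases with a listed Rad21 peak, including the site at the start of Pros1, as did 1664 of the 10553 lone sites of the whole list. The other 92 peaks (40.4%, 34.2 to 46.8%, against 31.6%) were absent from the class list, which the authors limited to peaks found in at least 2 livers, and their median score was 70. Over the 136 classed peaks alone, TAD anchors made up 9.56% (against 11.2% of all classed peaks) and intra-TAD anchors 17.6% (against 17.3%). Public data on Top2b, a topoisomerase that often accompanies cohesin, flagged 7 of 13 TAD anchors (53.8%, against 70.6% of all TAD anchors). It flagged 20 of 24 intra-TAD anchors (83.3%, against 77.6%) and 40 of 68 other CAC sites (58.8%, against 58.0%).

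The order of the nearest anchors around each gene was close to that around genes in general. Convergent anchors flanked 14 of the 38 genes (36.8%), against 32.8% of the 21990 protein-coding genes with an anchor on both sides. Divergent anchors flanked 10 (26.3%, against 27.4%), and 14 had anchors on the same strand (36.8%, against 39.8%). These shares count genes, and neighbours can have the same pair of anchors. Among the convergent genes this held for F7 and F10, C8a and C8b, Cfb and C2, and C1s and C1ra. The C1q genes likewise had the same pair, on the same strand. An anchor lay inside 7 of the genes, or 18.4%, against 21.8% of all genes. The interval between the flanking anchors had a median of 165 kb, with quartiles of 98.3 and 216 kb, against 233 kb with quartiles of 101 and 645 kb over all genes. Strand order was among the criteria by which the authors chose anchors.

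**Figure D5:**
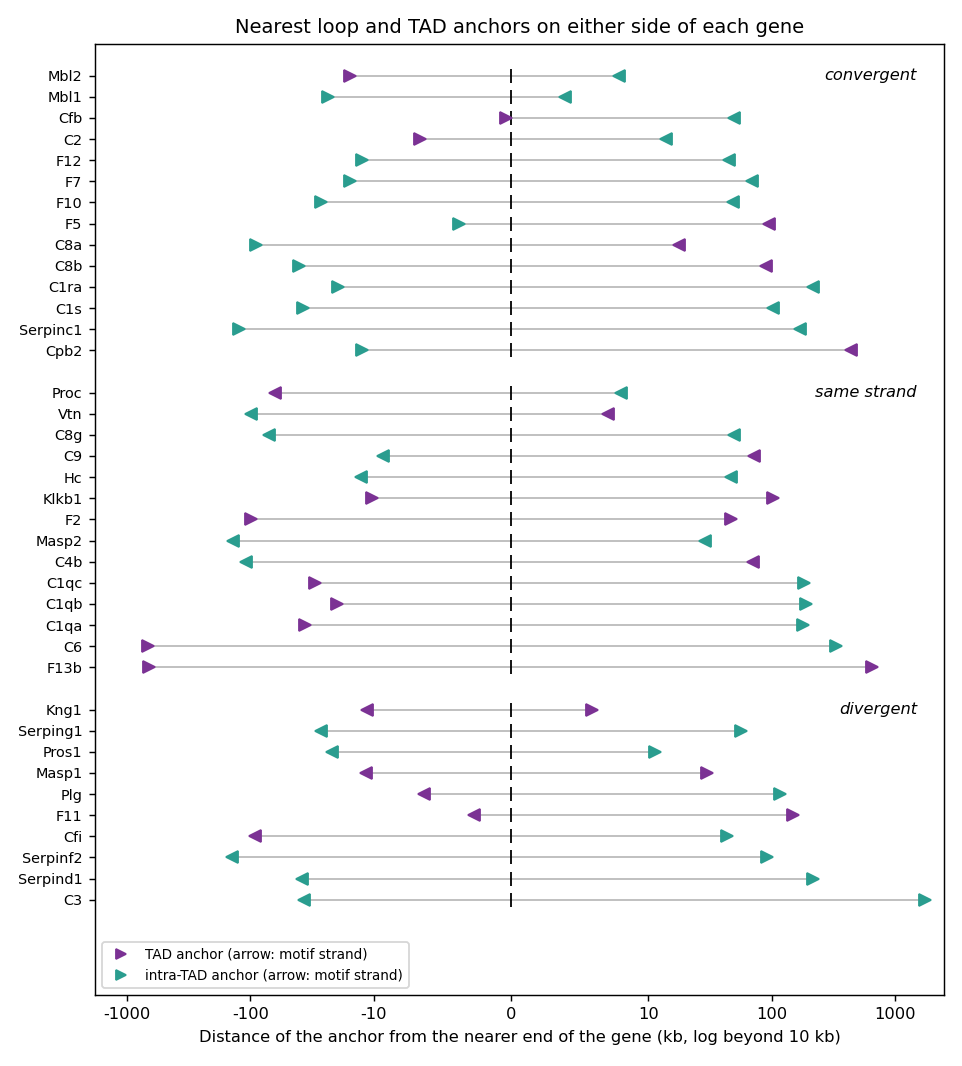
Nearest TAD anchor (purple) or intra-TAD anchor (green) on either side of each member, as the distance from the nearer end of the gene (kb, linear within 10 kb and logarithmic beyond), with arrows along the motif strand and the gene drawn as a tick at 0. The narrowest convergent interval was that of Mbl2 (30.0 kb) and the widest interval of any order that of C3 (1793 kb).

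The shortest convergent intervals were those of the lectin genes, of Cfb and C2, of F12, and of F7 and F10. Mbl2 lay between a TAD anchor 15.4 kb to its left (score 4924) and an intra-TAD anchor 7.84 kb to its right (score 3790), 30.0 kb apart. For Mbl1, the anchors were 34.7 kb apart and scored 2413 and 3414. Cfb and C2 shared an interval of 56.3 kb, whose TAD anchor lay only 0.372 kb from Cfb, F12 had one of 66.0 kb, and F7 and F10 shared one of 95.02 kb. These are the sites whose motifs are printed above. At the other extreme were C3, with 1793 kb between divergent anchors, and F13b, with 1336 kb between anchors on the same strand. No contact data were analysed, so whether these anchors form loops was not tested.

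The sequence under the peaks followed the overlap calls. The learnt CTCF motif was present within 150 bp of the summit at 2 of the 76 CNC peaks of the loci (2.63%) and at 72 of the 141 co-bound peaks (51.1%). The shares were 4.54% of all CNC peaks and 55.1% of a sample of 5000 co-bound peaks, and 5% of flanking positions pass the limit by construction. It was at 0 of the 23 CNC peaks at member starts and at 4.15% of all CNC peaks at a start. Of the CTCF peaks at the loci it was found at 13 of 13 TAD and 23 of 24 intra-TAD anchors, as well as at 22 of 92 unclassed peaks. The motif was learnt from anchors, so its presence there is no independent finding. The median GC content of CNC peaks was 52% at the loci and 50.3% in the whole list.

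Words of 4 liver transcription factors were searched on both strands in the same 300 bp. The HNF4 word AAAGTCCA occurred at 8 of the 76 CNC peaks (10.5%), against 3.41% of all CNC peaks and 2.84% of the co-bound peaks at the loci. The C/EBP word TTNNGCAA occurred at 13 (17.1%, against 17.3% of all CNC peaks), and the FOXA word TGTTTAC at 3 (3.95%, against 6.56%). A longer HNF1 word, of 12 bases, was at 0 of 76 and at 0.163% of all CNC peaks. Among the 23 CNC peaks at member starts the HNF4 word was at 2 (8.70%), the C/EBP word at 5 (21.7%) and the FOXA word at 3 (13.04%). Of all CNC peaks at a start 2.28, 11.6 and 3.88% had them. All 3 CNC peaks with the FOXA word lay in the same locus, that of F11 and Klkb1. Besides F10 and Plg, the HNF4 word lay under CNC peaks in the windows of F5, Serpind1, Masp1, Cfb, Proc and C1s. A match of letters is a description and not evidence of binding, and a missing match says only that these letters are not in the window.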

How the data were processed

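Reads of each factor were merged by the authors, who mapped them to mm9 with Bowtie2, kept unique positions, called peaks with MACS2, and dropped peaks that lay in blacklisted regions or consisted of PCR duplicates. The deposited score equalled the −log10 q times 10, cut to a whole number, at 76682 of 76683 CTCF and 67357 of 67369 Rad21 peaks. The deposited fold is a ratio to local background, and the −log10 p and −log10 q columns were also given by the authors. The deposited motif score is the authors' log-odds score of the CTCF motif. Fragments at the summit and local background were recovered from the fold and the −log10 p, and the count was whole within 0.01 at 99.996% of CTCF and 99.997% of Rad21 peaks of the deposited lists. The recovery was also tested on simulated data. The peak lists hold no read depth for a single library.

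Members, lists and role groups were chosen with earlier results of these data known. Values are named for each member with a CNC peak at a start, for the strongest peaks of each role group, for extremes of the counts and for genes with shared windows. Genes singled out beyond that rule were chosen after their values were seen. Shares carry 95% Wilson intervals, which cover counting error only. No test was run over members. Where a share was 0, the upper limit is 3 counts of the total. The CTCF motif was learnt from 1000 TAD anchors, and its strand was the deposited one at 99.1% of 6177 anchors on even-numbered autosomes. Alternatives varied the flank, the distance to the start, the score and the rule of overlap. Software comprised samtools 1.23.1, pysam 0.24.0, pandas 2.3.3, Matplotlib 3.10.9, SciPy 1.17.1, NumPy 2.4.6 and Python 3.11.15.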

Additional observations from a re-analysis of the deposited data

How the results depend on the processing

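The lists hold pooled peaks, so no replicate could be left out. No paired analysis was possible because the lists are pooled over the libraries of each factor and carry no replicate numbers. With 0, 10 and 50 kb around the genes, the CTCF peaks numbered 89, 178 and 366 and the Rad21 peaks 94, 170 and 356. CNC peaks then numbered 41 (43.6%), 64 (37.6%) and 107 (30.1%), against 22.7% of all Rad21 peaks. TAD anchors then numbered 3, 8 and 21 and intra-TAD anchors 7, 15 and 48; other CAC sites were 25 at 0 kb and 122 at 50 kb, and lone CTCF sites 15 at 0 kb. Leaving out scores under 100 left 123 Rad21 peaks with 16 CNC peaks (13.01%, against 8.14% of all Rad21 peaks) and 3 members with a CNC peak at a start (2.92% of all genes). The share of CNC peaks was 45.6% (33.7% of all Rad21 peaks) with a reciprocal overlap of 50%, 47.0% (36.8%) with summits within 100 bp and 51.6% (34.9%) with the class list in place of the pooled CTCF list. With no CTCF summit within 1 kb, a choice made after seeing the data, it was 23.0% (17.6%), from 50 peaks, and 9 members had one at a start. Members with a CNC peak at a start numbered 16 within 500 bp (6.67% of all genes), 20 within 2 kb (11.7%), 14 at the 5′ end alone (6.88%), and 20 to 22 under the other overlap rules, where 15.1 to 27.4% of all genes did. By fold in place of score, the median CNC peak of the loci stood at the 25.5th instead of the 53.1st percentile of all CNC peaks. The cause of these shifts was not tested.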
